A study of Mus musculus with 6 samples.

Results

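The Clcn5 intron cluster is a run of microRNA hairpins on the X chromosome, inside the gene for the chloride/proton exchanger ClC-5. Its members here are the arms of the hairpins mir-532, mir-188, mir-362, mir-501 and mir-500, 10 of the 1028 mature microRNAs in the count table. The count table held no miR-660, with or without an arm suffix, so miR-660 could not be analysed here. The members were chosen by name and shared host gene, after the EV and KO counts of these same libraries had been seen, in which miR-532-5p was higher in KO. All KO against EV values of the members are therefore given as a description, with no p-values printed. Their intervals, and their calls by an adjusted p under 0.05, are likewise description only.

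Small RNA was sequenced from cultured mouse cells of an epicardial line, the epicardium being the layer that covers the heart. The EV cells (3 libraries) carried an empty-vector lentivirus, and the KO cells (3 libraries) a lentivirus with a guide RNA against the histone deacetylase gene Hdac3 for knockout with CRISPR/Cas9. Per the labels, all were grown in high-glucose medium with fetal bovine serum, and the comparison addresses which microRNAs differ when Hdac3 is targeted. The labels do not say whether the KO cells are 1 clone or a pool, nor whether replicates were separate cultures. Small-RNA libraries do not measure Hdac3 or Clcn5 mRNA, so neither the knockout nor the host transcript was checked here.

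A microRNA hairpin is cut from a longer transcript, often an intron of a host gene, by Drosha and then Dicer. Each of its arms, named 5p and 3p, can be loaded into an Argonaute protein, and usually one arm accumulates while the other is degraded. Bases 2 to 8 of the mature strand, the seed, pair with target mRNAs, so arms with the same seed are expected to share many targets. Clcn5 itself is best known from the kidney, where ClC-5 acts in endosomes and its loss causes Dent disease in people.

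In the GRCm38 build all 5 hairpins lie on the minus strand, within 10815 bp of the same intron of Clcn5 (chrX:7153810-7319358). The intron spans chrX:7213011-7316658 and is the third of transcripts Clcn5-202 and Clcn5-204 and the second of Clcn5-203 in GENCODE M21. In the direction of transcription the hairpins are Mir532 at chrX:7248402-7248497, Mir188 at chrX:7247989-7248056, Mir362 at chrX:7241982-7242046, Mir501 at chrX:7241243-7241351 and Mir500 at chrX:7237683-7237774. Mir532 and Mir188 are 345 bp apart and Mir362 and Mir501 are 630 bp apart, with gaps of 5942 bp and 3468 bp after Mir188 and after Mir501. No hairpin overlaps an annotated exon of the host.

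The sequences show which arms could act on the same targets and which could share reads. Of the 10 members, 9 were matched by name in the RefSeq table (GRCm38.p6). The member without a match was miR-532-5p, the most abundant, so it enters no comparison of sequences or seeds here. Sequences printed here carry their seed in capitals, 5′ to 3′. The arms of mir-362 and mir-500 that lie on the 5p side have 1 seed in common, the 3p arms of mir-501 and mir-500 another, and miR-362-3p has the seed of miR-329-3p, a microRNA of the imprinted Dlk1-Dio3 region that is no member of the cluster.
miR-362-5p: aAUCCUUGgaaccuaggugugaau
miR-500-5p: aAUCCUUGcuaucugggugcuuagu
miR-501-3p: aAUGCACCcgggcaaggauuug
miR-500-3p: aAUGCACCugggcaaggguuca
miR-362-3p: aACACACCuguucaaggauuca
miR-329-3p: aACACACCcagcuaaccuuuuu
miR-188-5p: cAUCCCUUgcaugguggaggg
miR-532-3p: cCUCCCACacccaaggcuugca
The mature miR-500-3p and miR-501-3p differ at 4 of 22 positions, the fewest of any pair of members with a sequence. The rule by which reads that fit several microRNAs were assigned is not known here, so the split between these 2 arms is uncertain. miR-362-3p and miR-500-3p, with different seeds, differ at 5 of 22 positions.

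The libraries held 11824881 to 13412774 counts. Where 3 values are given for a group, they are those of its replicates 1, 2 and 3. Levels are in CPM, counts per 1000000 of a library total that was scaled by its TMM factor, a correction for differences in composition that ran from 0.919 to 1.23. Because 1 read was worth 0.0637 to 0.0892 CPM, the faintest arms rest on a handful of reads. Intervals cover counting or replicate error only, and no molecular identifiers are mentioned, so PCR copies count as reads. Ligation favours some small RNAs over others, which affects levels compared between microRNAs more than 1 microRNA compared between libraries. Of the marker lists, the mesenchymal or fibroblast-like one (5 of 5 in the table) summed to 589456 to 837452 CPM in EV and 761489 to 833933 in KO. Most of that sum was miR-21a-5p alone, at 513964 to 763066 CPM in EV and 676324 to 754475 in KO. The epithelial list (5 of 5) summed to 41.4 to 50.03 CPM in EV and 25.3 to 27.3 in KO, the endothelial list (2 of 2) to 36.6 to 42.1 and 34.7 to 35.4, and the muscle list (4 of 5) to 26.3 to 27.2 and 21.0 to 25.1. The white blood cell list (4 of 4) reached at most 1.55 CPM. The red blood cell list (2 of 2) ran from 0.892 to 54.7 CPM in EV and from 0.243 to 62.7 in KO, and the neural list (2 of 2) from 11.3 to 52.1 and from 15.2 to 57.8, with EV 3 and KO 2 the highest of their groups in both. Of the listed microRNAs in the table, 0 were at 0 reads in all 6 libraries. No list marks the epicardium, so that label was not checked, and the part of these other markers in the results was not tested.

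The cluster was higher in KO than in EV as a whole, and nearly all of its reads were miR-532-5p. The 10 members summed to 938, 805 and 922 CPM in the EV libraries, against 1269.7, 1346 and 1371 in the KO libraries. The 3 KO sums lay above the 3 EV sums, with means of 1329 ± 52.8 and 888.5 ± 72.7 CPM (SD, n = 3 each). miR-532-5p supplied 90.01% ± 0.900 of the member counts in EV and 90.6% ± 0.403 in KO (SD, n = 3 each), and these shares overlapped. Without miR-532-5p the other 9 members still summed to more in KO, at 124.9 ± 6.15 against 88.6 ± 9.31 CPM (SD, n = 3 each), and the groups did not overlap. In these bulk libraries, more cells that make the cluster and more of its RNA per cell cannot be told apart.

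The words called and rose are used here of a microRNA only where its Benjamini-Hochberg adjusted p from edgeR's quasi-likelihood test lay under 0.05 over all tested microRNAs. Of the 10 members, 7 passed the filter on low counts and were tested, and miR-188-3p, miR-501-5p and miR-500-5p did not pass. Of the 7, 3 were called, all higher in KO (miR-532-5p, miR-362-3p and miR-500-3p), and 4 were not. Over all 460 tested microRNAs 5.00% were called higher in KO. The 7 log2 changes of KO over EV were all above 0 and had a median of 0.59, where the median of all tested microRNAs was -0.01. For 6 of the 7, every KO library lay above every EV library in CPM, as it did for 15.2% of all tested microRNAs. The arms share hairpins and 1 host intron, and the contrast was known when they were chosen, so nothing is read from these counts.

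**Figure D1:**
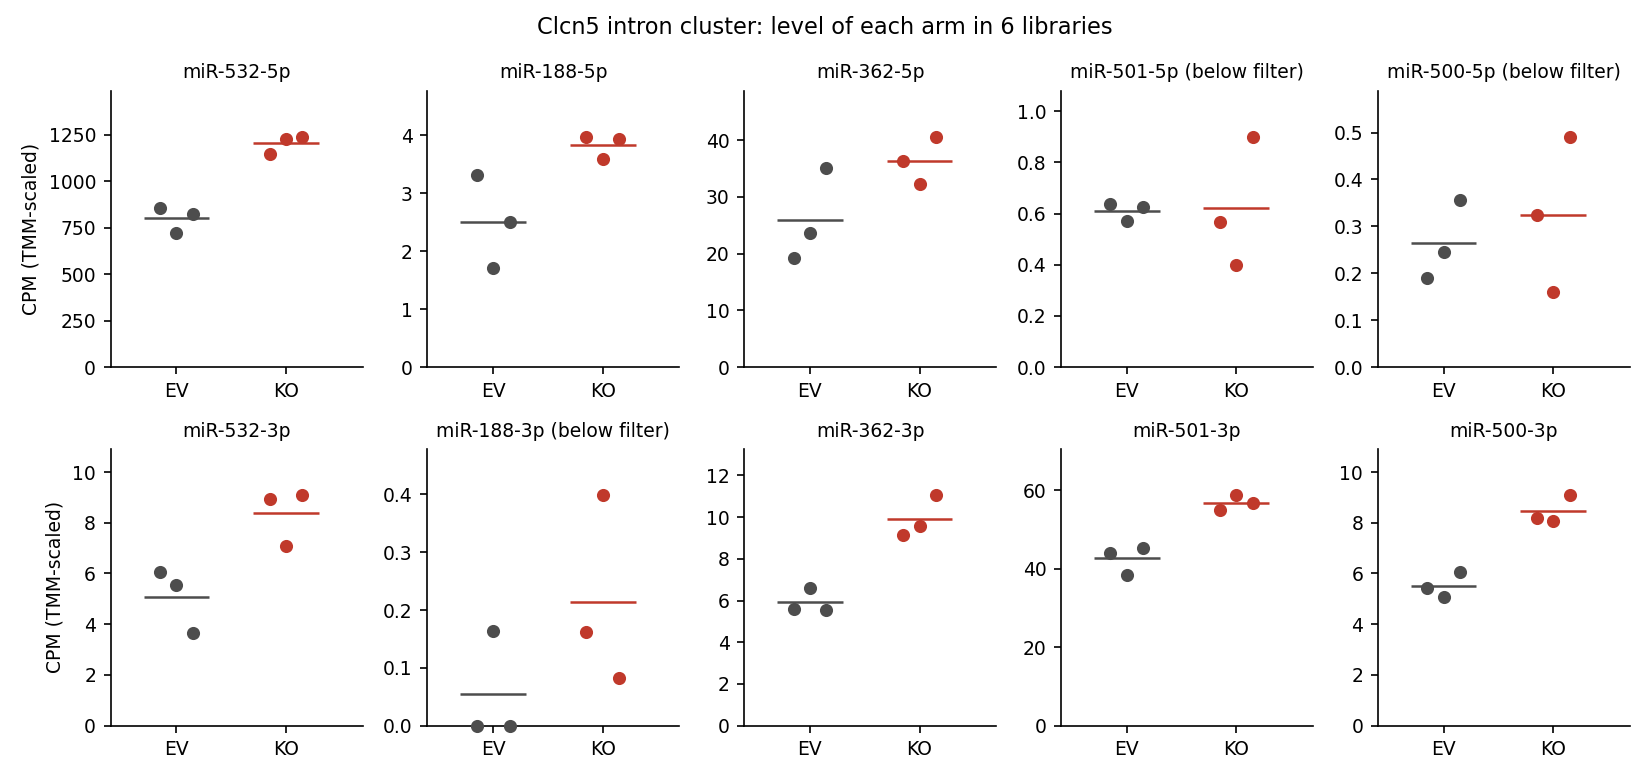
CPM (vertical axes, each from 0) of the 10 arms of the cluster in the 3 EV and 3 KO libraries, with points for libraries, lines for group means, 5p arms in the upper row and 3p arms in the lower. Among the 7 arms that passed the filter, miR-362-5p is the 1 whose groups overlap, with EV 3 at 35.2 CPM above KO 2 at 32.3.

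The hairpin nearest the start of the host transcript, mir-532, gave the cluster's most abundant arm, which rose in KO. miR-532-5p ranked 41st of the 460 tested microRNAs by mean level, at 854, 723 and 823 CPM in the EV libraries, against 1147, 1226 and 1239 in the KO libraries. All KO values were above all EV values, and the gap between the nearest libraries, EV 1 and KO 1, was wider than the range within either group. The log2 change was 0.59 (SE 0.08, 95% interval 0.41 to 0.77), a 1.51-fold difference. Its opposite arm, miR-532-3p, stood at 6.05, 5.55 and 3.66 CPM in the EV libraries, against 8.92, 7.10 and 9.09 in the KO libraries. The groups did not overlap, but EV 3 sat well under the other EV libraries and KO 2 under the other KO libraries. The log2 change of miR-532-3p was 0.71 (SE 0.20, 95% interval 0.25 to 1.17), and it was not called.

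The next hairpin, mir-188, was the faintest source of a tested arm. miR-188-5p had 52, 21 and 28 reads in the EV libraries, against 49, 45 and 48 in the KO libraries. In CPM these were 3.31, 1.71 and 2.50 in EV and 3.97, 3.59 and 3.93 in KO. The KO libraries lay close together and above EV, while EV 1 had more than double the reads of EV 2. The log2 change was 0.59 (SE 0.23, 95% interval 0.07 to 1.11), the same size as that of miR-532-5p with a wider interval, and miR-188-5p was not called. miR-188-3p had 0, 2 and 0 reads in the EV libraries, against 2, 5 and 1 in the KO libraries. A count of 0 allows up to 0.191 CPM in EV 1 and 0.268 CPM in EV 3, so no difference in miR-188-3p was detectable at this depth.

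From mir-362 the minor arm was called and the major arm was not. miR-362-3p was at 5.61, 6.61 and 5.53 CPM in the EV libraries, against 9.16, 9.57 and 11.1 in the KO libraries. It rose without overlap, with the largest log2 change of the tested members, 0.75 (SE 0.15, 95% interval 0.40 to 1.09), a 1.68-fold difference. miR-362-5p was more abundant, at 19.2, 23.7 and 35.2 CPM in the EV libraries, against 36.2, 32.3 and 40.6 in the KO libraries. EV 3 reached the KO range, and the groups of miR-362-5p overlapped. Its log2 change was 0.49 (SE 0.21, 95% interval 0.01 to 0.97). Without EV 3 the log2 change of miR-362-5p was 0.76 (SE 0.17) and it was called. With any other single library left out miR-362-5p was not called, at 0.31 (without EV 1) to 0.57 (without KO 2). Over all 16 other settings it was called in 3. Whether the arms of mir-362 changed by different amounts was not tested.

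The hairpins farthest from the start of the host transcript, mir-501 and mir-500, both accumulated their 3p arm. miR-501-3p, the second most abundant member, was at 44.1, 38.5 and 45.4 CPM in the EV libraries, against 54.97, 58.8 and 56.7 in the KO libraries. The groups did not overlap, and the log2 change of 0.41 (SE 0.11, 95% interval 0.15 to 0.67) was the smallest of the 7; miR-501-3p was not called. miR-500-3p was at 5.41, 5.06 and 6.07 CPM in the EV libraries, against 8.19, 8.06 and 9.09 in the KO libraries. It rose without overlap, by a log2 change of 0.62 (SE 0.15, 95% interval 0.29 to 0.94). miR-500-3p amounted to 12.3%, 13.1% and 13.4% of the miR-501-3p count in the EV libraries, against 14.9%, 13.7% and 16.04% in the KO libraries. This ratio of similar arms was higher in every KO library than in any EV library, on 62 to 111 miR-500-3p reads per library. Whether the ratios differ by more than counting error was not tested. The part of shared reads in the values of either arm was not tested.

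The opposite arms of these hairpins were near the floor of detection. miR-501-5p had 5 to 11 reads and miR-500-5p 2 to 6 reads per library, and their CPM overlapped between groups. At 0.611 ± 0.0349 CPM in EV and 0.622 ± 0.255 in KO (SD, n = 3 each), miR-501-5p showed no difference detectable at this depth. miR-500-5p was at 0.264 ± 0.0846 CPM in EV and 0.325 ± 0.166 in KO (SD, n = 3 each).

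**Figure D2:**
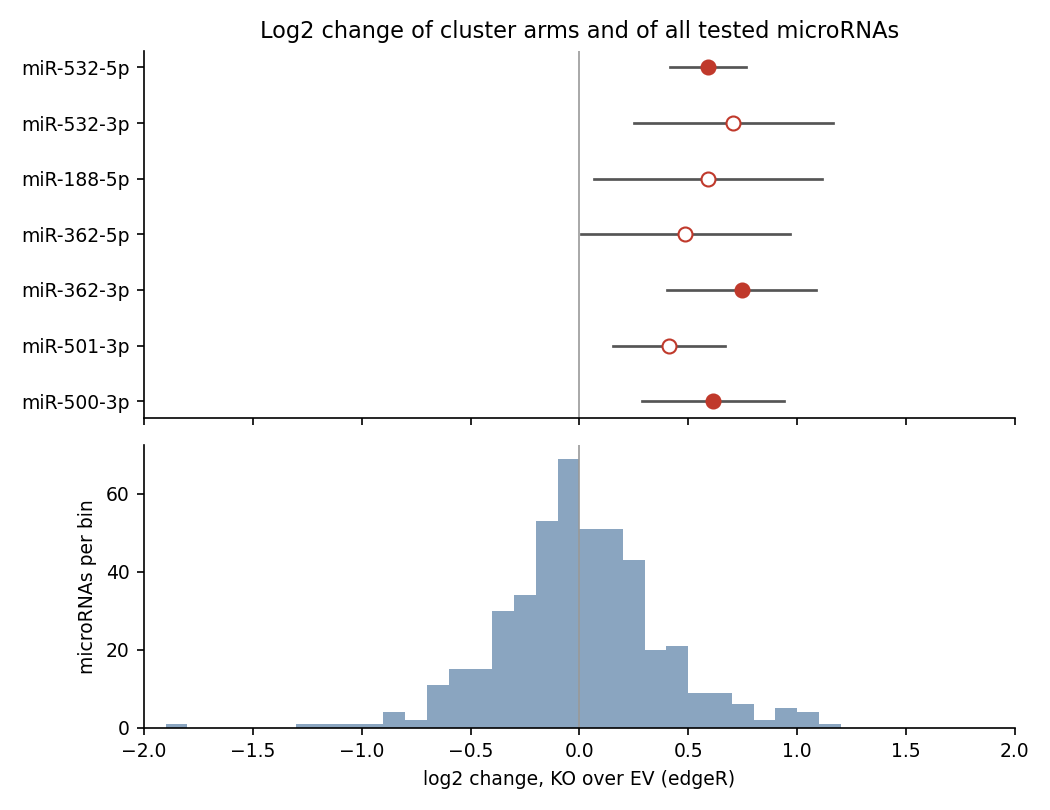
Upper part, log2 change of KO over EV for the 7 tested arms of the cluster, with 95% intervals and filled points where the arm was called. Lower part, the number of microRNAs in each bin of 0.1 log2 units for all 460 tested; the 7 arms run from 0.41 to 0.75, to the right of the overall median of -0.01.

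The log2 changes of the 7 arms lay within a narrow range, from 0.41 for miR-501-3p to 0.75 for miR-362-3p, although their mean levels ran from 3.17 CPM for miR-188-5p to 1002 CPM for miR-532-5p. The 95% interval of every tested arm held the median of the 7, and no arm's interval lay wholly outside that of miR-532-5p. That median comes from these same arms and is the value of miR-188-5p, so no common size of change is read from this. Along the transcript there was no ordered rise or fall: the arms with most reads stood at 0.59 (mir-532), 0.59 (mir-188), 0.49 (mir-362), 0.41 (mir-501) and 0.62 (mir-500). Whether these changes differ from each other was not tested. By level the order was miR-532-5p, miR-501-3p, miR-362-5p, miR-362-3p, miR-500-3p, miR-532-3p and miR-188-5p. The neighbours miR-362-3p, miR-500-3p and miR-532-3p had means of 7.92, 6.98 and 6.73 CPM over the 6 libraries. Their EV values overlapped, and in KO those of miR-500-3p and miR-532-3p did, while miR-362-3p lay just above both.

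The balance between the arms of a hairpin does not depend on the scaling of the library, since both arms come from 1 library. The 5p arm made up 99.4% ± 0.170 of the mir-532 reads in EV and 99.3% ± 0.103 in KO (SD, n = 3 each). For mir-188 it was 97.1% ± 5.02 in EV and 94.7% ± 4.16 in KO, on 10 reads of the 3p arm in all 6 libraries. The mir-362 hairpin was the most even, with a 5p share of 80.6% ± 4.999 in EV and 78.5% ± 1.34 in KO. Its 5p share in EV 3, 86.4% (95% exact binomial interval 82.9 to 89.4%), stood above the 77.1 to 79.8% of the other 5 libraries. For mir-501 the 5p share was 1.41% ± 0.0530 in EV and 1.09% ± 0.449 in KO, and for mir-500 it was 4.53% ± 1.08 in EV and 3.63% ± 1.60 in KO. In all 5 hairpins the EV and KO libraries overlapped. Summed over the 6 libraries, the 5p arm outnumbered the 3p arm 148-fold for mir-532, 24.3-fold for mir-188 and 3.89-fold for mir-362, while the 3p arm outnumbered the 5p arm 80.4-fold for mir-501.

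**Figure D3:**
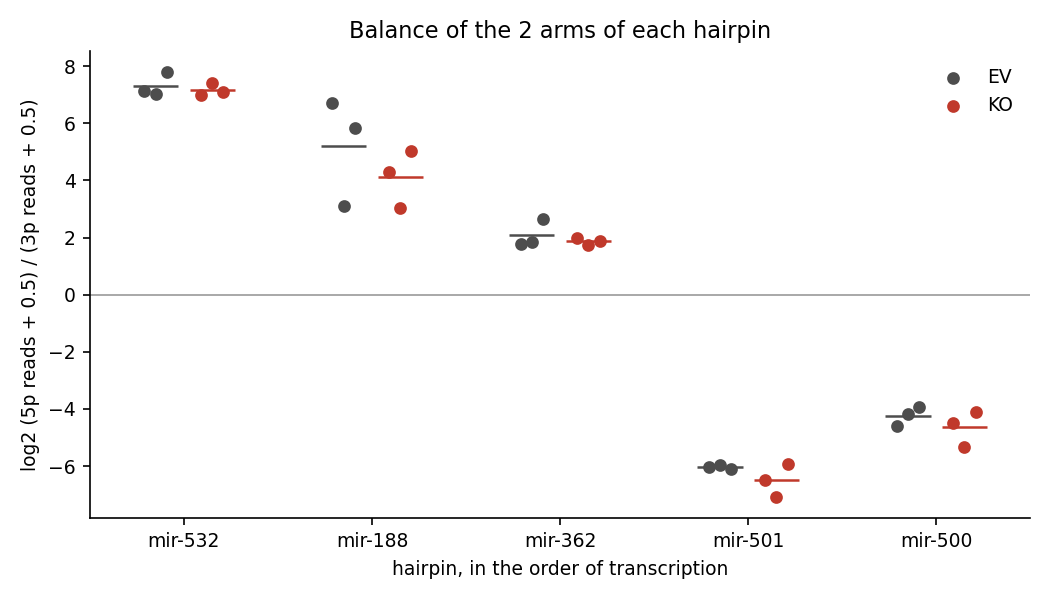
Log2 ratio of 5p to 3p reads, each plus 0.5, for the 5 hairpins in the order of transcription, with a point per library and lines for group means. The hairpins mir-532, mir-188 and mir-362 lie above 0 and mir-501 and mir-500 below 0 in every library, and EV and KO overlap for each hairpin.

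The members' values depend in part on how EV 1 is scaled, which had the highest TMM factor. With counts per 1000000 of the plain library total, miR-532-5p was at 1047, 749 and 756 in the EV libraries, against 1055, 1208 and 1171 in the KO libraries. The groups still did not overlap, but EV 1 came close to KO 1. On that scale 3 of the 7 tested arms had every KO library above every EV library (miR-532-5p, miR-362-3p and miR-500-3p), and so did 5.43% of all tested microRNAs. With library size alone in the edgeR fit, 0 of the 7 were called, with miR-532-5p at 0.43 (SE 0.14). Over all 460 tested microRNAs that fit called 1 higher in KO (0.217%) and 4 lower, and the median of all microRNAs moved to -0.16. The members' median, 0.43 in that fit, stood 0.59 above the overall median, against 0.60 with TMM factors. A change of scaling moves all microRNAs by nearly the same amount, so this difference could hardly change and tells nothing about the members.

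The libraries that were left out in turn also moved the count of called members. Without EV 1, KO 2 or KO 3, miR-532-5p was the 1 member called, where 3.37%, 2.32% and 2.94% of all tested microRNAs were called higher. Without EV 3, 5 of 8 tested members were called, beside 8.32% of all tested called higher. Without EV 3 and KO 2, the libraries highest in red blood cell and neural markers, 6 of 8 tested members were called, beside 11.5% of all tested called higher. The 2 members not called there were miR-188-5p and miR-501-5p, which passed the filter in that setting. In every setting in which they were tested, the log2 changes of the 7 arms were above 0. miR-532-5p was called in 15 of 16 other settings, miR-362-3p in 11 of 15 and miR-500-3p in 5 of 15. Of these 3 calls, that of miR-500-3p depended most on the setting. The members were chosen with the contrast known, so these tallies only describe the effect of the processing. In the authors' deposited table, which lists 78 microRNAs, 5 of the members appear: miR-532-5p, miR-501-3p, miR-362-3p, miR-500-3p and miR-532-3p. That authors' deposited table gives them log2 changes of 0.56, 0.39, 0.70, 0.57 and 0.62 in this order, on the authors' own scaling.

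**Figure D4:**
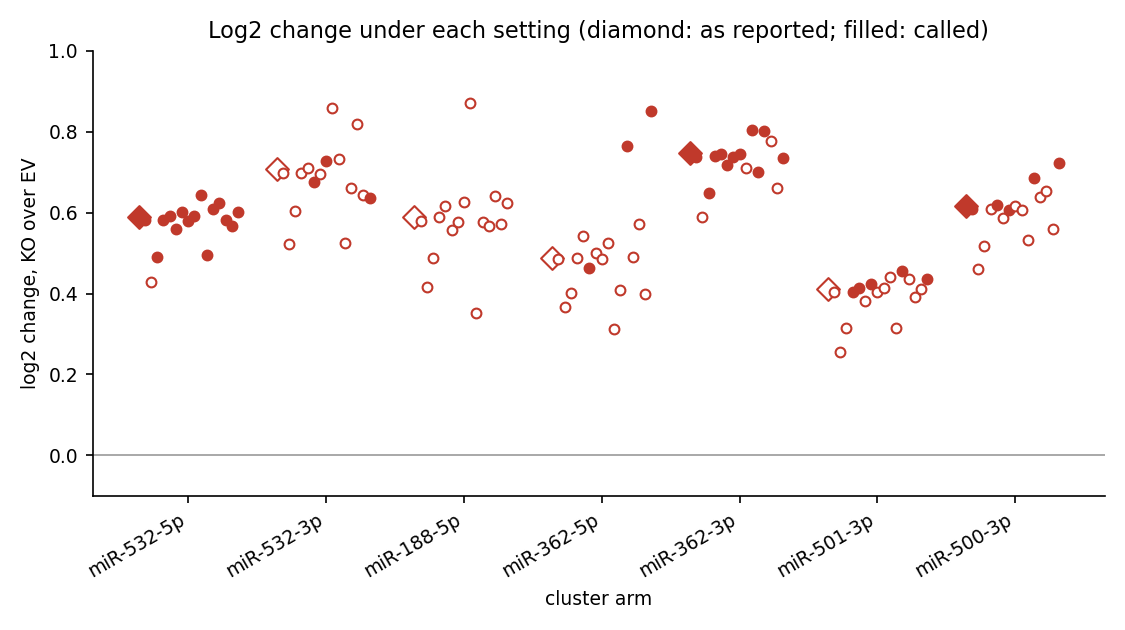
Log2 change of KO over EV for the 7 tested arms under each setting, as reported (diamonds) and under the other scalings, filters, tests and left-out libraries (circles), filled where the arm was called. All points lie above 0, and miR-532-5p runs from 0.43 to 0.64.

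Other microRNAs with seeds of the cluster, or from the same chromosome, did not all move with it. Among microRNAs with a sequence here, miR-329-3p, which carries the seed of miR-362-3p, was the only measured one outside the cluster to share a seed with a tested member. It was at 17.8, 18.4 and 19.8 CPM in the EV libraries, against 17.2, 12.4 and 15.3 in the KO libraries. Every KO value of miR-329-3p lay below every EV value, the opposite of miR-362-3p, with a log2 change of -0.32 (SE 0.16), and it was not called. In mean level miR-329-3p exceeded miR-362-3p in both groups, at 18.6 against 5.92 CPM in EV and 14.98 against 9.93 CPM in KO. Of 25 tested microRNAs outside the cluster whose hairpins all lie on the X chromosome, 3 rose (miR-322-5p, miR-322-3p and miR-503-5p, from the Mir322 and Mir503 hairpins) and 0 fell. Of these 25, 20 had a log2 change above 0, with a median of 0.14, where 222 of all 460 tested microRNAs were above 0 and 23 were called higher; positions were known for 394 of the 460 tested microRNAs.

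Profiles over the 6 libraries were compared with that of miR-532-5p among 246 microRNAs outside the cluster with a mean of at least 10 CPM. The measure was the root-mean-square difference of log2 CPM after each microRNA's own mean was subtracted. The nearest was miR-503-5p at 0.04 log2 units, followed by miR-34c-5p at 0.08, miR-34c-3p at 0.09, miR-3074-2-3p at 0.11 and miR-24-2-5p at 0.11. miR-503-5p went from 376, 342 and 358 CPM in EV 1, EV 2 and EV 3 to 524, 541 and 566 CPM in KO 1, KO 2 and KO 3, a log2 change of 0.60 (SE 0.07). The last 2 names have near-equal counts and may stand for the same reads. Of the cluster's own arms at this level, miR-501-3p lay at 0.10, in place 4 of 248, and miR-362-5p at 0.29, in place 85. All the nearest microRNAs named from outside the cluster were called higher in KO, with log2 changes from 0.49 to 0.65. The measure spans both groups, so it includes the KO against EV difference and adds no separate result on the cluster.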

How the data were processed

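Trizol RNA was made into small-RNA libraries with a NEBNext kit and gel selection, per the labels' protocols. The authors deposited whole-number read counts per mature microRNA, TPM values that scale each count to a library total of 1000000 (not tested), and a comparison table with a mean normalized count (signal) per group, a log2 fold change and p-values; the deposited p-values were not used. Per the submitters' processing notes, Bowtie, mm10 and DESeq 1.8.3 were used; multi-mapping and the miRBase release are not given in the sources used here. Members and lists were chosen with earlier results of these data known. KO was compared with EV across all microRNAs in edgeR 4.0.16 (R 4.3.3), with TMM factors, filterByExpr (minimum count 10, minimum total 15), the two-sided quasi-likelihood test and Benjamini-Hochberg adjustment at 0.05, after the script was tested on simulated data. SE is the log2 change over the square root of F. Libraries of 1 group differed by more than counting noise (smallest chi-square 9174 on 529 degrees of freedom), and the spread that p-values measure may be technical. Every member was named, along with measured microRNAs sharing a tested member's seed and the 5 profiles nearest to miR-532-5p. Alternatives were library size alone, median-of-ratios factors, library sizes without miR-21a-5p, DESeq2 1.42.0, limma-voom (limma 3.58.1), no filter, at least 10 CPM in 3 libraries, the 5 most abundant microRNAs left out, a replicate block, each library left out, and EV 3 with KO 2 left out.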

Additional observations from a re-analysis of the deposited data

How the results depend on the processing

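Over all microRNAs 35 were called, against 5 (1 higher, 4 lower) with library size alone, 56 with no filter, 88 without EV 3 and KO 2, and 15 to 59 with each library left out (edgeR). With no filter these were 28 higher and 28 lower, and with miR-21a-5p left out of the library sizes 18 higher and 25 lower, against 23 and 12. Members called went from 3 to 0 with library size alone and to 6 without EV 3 and KO 2. They ranged from 1 to 5 with each library left out, and in the other settings 2 to 4 were called, all higher in KO. Tested members numbered 10 with no filter and 8 without EV 2, EV 3, KO 2, or EV 3 and KO 2. Of all tested microRNAs, 1 of 460 was called higher with library size alone and 54 of 470 without EV 3 and KO 2. With each library left out this ran from 10 of 481 (without EV 2) to 40 of 481 (without EV 3). It was 28 of 1028 with no filter and 24 of 253 at 10 CPM in 3 libraries. Otherwise it ran from 18 of 460 (library sizes without miR-21a-5p) to 27 of 460 (DESeq2). Which members were called varied: DESeq2 called miR-501-3p and not miR-500-3p, and with no filter miR-362-5p and miR-532-3p were called and miR-500-3p was not. At 10 CPM in 3 libraries 3 members were tested. With the replicate block 34 microRNAs were called, and 3 members (miR-532-5p, miR-362-3p and miR-532-3p). Same-numbered libraries had deviations correlated at 0.30, -0.04 and -0.22, and only KO 1 correlated best with the library of its own number. With 3 libraries per group these correlations cannot decide whether the numbers pair the samples. Differences in arm balance (KO minus EV, log2) moved by less than the SD pooled over both groups in all 40 alternatives, but in 5 they changed sign: mir-532 from -0.14 to 0.10 and mir-362 from -0.22 to 0.07 without EV 3, mir-362 to 0.13 and mir-500 from -0.41 to 0.09 without EV 3 and KO 2, and mir-188 from -1.09 to 0.21 with 10 added to both arms. Depth limits miR-188-3p, miR-501-5p and miR-500-5p, each with at most 11 reads in a library.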
